A study of Caenorhabditis elegans with 6 samples.

Results

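The heat shock chaperones described here are 10 *C. elegans* genes chosen by name from the 46904 gene identifiers counted, and grouped by the compartment in which their proteins are known to work. The cytosol was represented by *hsp-1*, *hsp-70* and *hsp-110*, the small heat shock proteins by *hsp-12.6*, *hsp-16.2* and *hsp-16.41*, the endoplasmic reticulum (ER) by *hsp-3* and *hsp-4*, and mitochondria by *hsp-6* and *hsp-60*. Each of the 10 was matched to 1 identifier. The rule uses names and not measured values, although the genes were chosen with earlier results of these data known, and protein location was not measured.

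RNA was sequenced from whole wild-type N2 worms in 6 libraries, 3 from worms treated with CGP37157 and 3 from control worms. Treated worms were moved as young adults to plates seeded with OP50 bacteria and containing 50 µM CGP37157, an inhibitor of the mitochondrial Na+/Ca2+ exchanger, while control worms were moved to seeded plates without it, and the solvent of the plates is not given in the sources used here. Both groups were kept at 20 °C, moved daily, and collected at day 5 of treatment after washes to remove eggs and larvae, and their labels give the same age of 5 days. The study asked, among other things, whether the compound stressed the cytosol, for which it used a fluorescent reporter driven by the *hsp-16.2* promoter, and the transcripts below were measured in worms without that reporter.

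Chaperones hold or refold proteins that have lost their shape, and each compartment has its own set. Cytosolic Hsp70 proteins bind exposed hydrophobic stretches and release them with ATP, Hsp110 proteins exchange their nucleotide, and small heat shock proteins hold unfolded clients without ATP. Heat and other damage raise the inducible cytosolic genes through the factor HSF-1, while unfolded protein in the ER raises the BiP genes and damage to mitochondria raises *hsp-6* and *hsp-60*, each through a separate pathway.

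No difference between CGP37157 and control worms was detected in any of the 10 chaperone transcripts. The 6 that were expressed well enough to be tested, *hsp-1*, *hsp-110*, *hsp-3*, *hsp-4*, *hsp-6* and *hsp-60*, had fold changes between 1.01 and 1.05. The remaining 4, *hsp-70* and the 3 small heat shock genes, were close to the detection limit in both groups. The test was edgeR's quasi-likelihood test, run on the 12385 genes that reached 1 CPM in 3 or more libraries. For this filter, CPM corrected each count for the size of its library only. The CPM levels given here were also corrected for the composition of the library, by TMM factors, unless library size alone is named. A gene was called at a Benjamini-Hochberg adjusted p under 0.05 over all tested genes. By this rule 0 of the 6 chaperones were called higher and 0 lower (adjusted p = 0.999929 for each). Their unadjusted p lay between 0.765 and 0.973, so that 0 passed an unadjusted p of 0.05, and DESeq2 called none. Across all tested genes, 1.16% were called higher and 0.234% lower. The values of the CGP37157 and control libraries overlapped for all 10 chaperones. Among all tested genes, all CGP37157 libraries lay above all control libraries for 3.85% and below them for 3.69%.

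**Figure D1:**
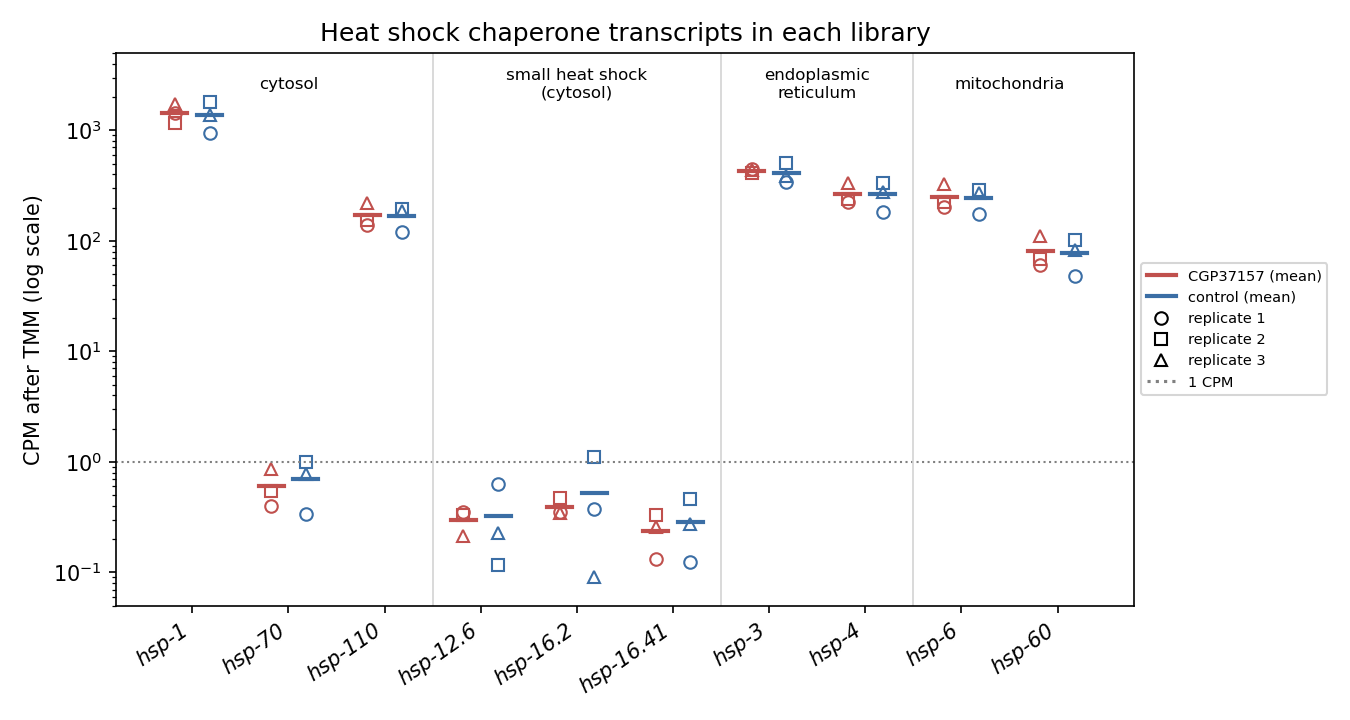
CPM after TMM (log scale) of the 10 chaperones in each library, with CGP37157 worms in red and control worms in blue, a symbol for each replicate and a bar at the mean of 3. Of the genes, 6 lie between 48.4 and 1819.8 CPM and 4 lie around or under 1 CPM, and the groups overlap at every gene.

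Depth lay between 23821727 and 24551795 counts in CGP37157 libraries and between 21122852 and 21245713 counts in control libraries. TMM factors were between 0.815 and 1.13, the lowest being that of control replicate 2. Replicates of a group differed by more than sampling noise in every pair, so none was a repeated library. The sources do not say whether the replicates came from separate cultures, so p-values measure the spread between these samples, which may be technical.

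In the cytosol, *hsp-1* encodes the constitutive Hsp70 and was the most abundant of the 10. It lies on chromosome IV (17278959 to 17281330, plus strand; all positions are from the Ensembl annotation of WBcel235). Its level was 1420.2, 1154 and 1746 CPM in the CGP37157 libraries, against 937, 1819.8 and 1362 CPM in the control libraries. The 2 outermost values were both from control worms, so that the CGP37157 values lay within the control range. CGP37157 worms averaged 1440.0 ± 296 CPM and control worms 1373 ± 442 CPM (SD, n = 3 each). This was a log2 fold change of 0.07 (SE 0.30), with a 95% interval from 0.656-fold to 1.68-fold.

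*hsp-110*, on chromosome III (8443910 to 8446909, minus strand), encodes the Hsp110 nucleotide exchange factor. It had 139, 154 and 221 CPM in CGP37157 worms, against 121, 193 and 186 CPM in control worms. The groups overlapped, and after TMM the highest value was in a CGP37157 library and the lowest in a control library. The log2 fold change was 0.04 (SE 0.26), with a 95% interval from 0.690-fold to 1.53-fold.

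The inducible Hsp70 gene *hsp-70* (chromosome I, 9320325 to 9322519, minus strand) lies within *uggt-2*, which runs on the opposite strand and shares no exonic base with it. It had 9, 15 and 20 reads in the CGP37157 libraries, against 8, 17 and 17 reads in the control libraries. The sums were 44 reads in CGP37157 worms (exact Poisson 95% interval 32.0 to 59.1) and 42 reads in control worms (30.3 to 56.8), where the intervals cover counting error only. No library reached 1 CPM, so the gene was not tested. Fitted without the filter, its log2 fold change was -0.17, with an interval from 0.450-fold to 1.76-fold. A pair of neighbouring inducible Hsp70 genes, *F44E5.4* and *F44E5.5*, was as low. They summed to 32 and 16 reads in CGP37157 worms, against 31 and 18 reads in control worms. Reads shared between these near-identical copies may have been divided or dropped, since the treatment of such reads is not given in the sources used here.

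The small heat shock genes *hsp-16.2* and *hsp-16.41* are a divergent pair on chromosome V (1804334 to 1804957, minus strand, and 1805178 to 1805875, plus strand), with 220 bases between them. Both are strongly heat-inducible, and *hsp-16.2* is the gene whose promoter drives the stress reporter. *hsp-16.2* had 8, 13 and 8 reads in CGP37157 worms, against 9, 19 and 2 reads in control worms. The sums were 29 reads in CGP37157 worms (exact Poisson 95% interval 19.4 to 41.6) and 30 reads in control worms (20.2 to 42.8). Control replicates 2 and 3 held the highest and the lowest value, at 1.10 and 0.0912 CPM, and the CGP37157 libraries lay between them at 0.342 to 0.475 CPM. After TMM, control replicate 2 was the only library of the 6 to reach 1 CPM for this gene.

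*hsp-16.41* had 3, 9 and 6 reads in CGP37157 worms, against 3, 8 and 6 reads in control worms. Both groups thus had the same lowest value of 3 reads. *hsp-12.6*, a small heat shock gene known as a target of the longevity factor DAF-16, lies on chromosome IV (9446229 to 9447228, minus strand). It had 8, 9 and 5 reads in CGP37157 worms, against 15, 2 and 5 reads in control worms, and both groups summed to 22. Without the filter, 95% intervals ran from 0.350-fold to 1.84-fold for *hsp-16.2*, from 0.360-fold to 2.22-fold for *hsp-16.41* and from 0.386-fold to 2.11-fold for *hsp-12.6*. Changes within these intervals are not excluded, and larger ones may also have gone uncalled. Both the low counts and the spread between replicates limit these fits. Over 21932 genes without the filter, the 4 weakly expressed chaperones had an adjusted p of 0.998588, and the lowest unadjusted p among them was 0.592.

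In the ER, *hsp-3* and *hsp-4* are the 2 worm homologues of BiP, the Hsp70 of that compartment, and *hsp-4* is the more strongly induced of the pair when unfolded protein accumulates. *hsp-3* (chromosome X, 6089028 to 6092124, minus strand) had 447, 408 and 439 CPM in CGP37157 worms, against 342, 504.3 and 388 CPM in control worms. It was the steadiest of the tested chaperones within CGP37157 worms, with an SD of 20.6 CPM, against 83.8 CPM in control worms. The log2 fold change was 0.07 (SE 0.22), with an interval from 0.743-fold to 1.48-fold.

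*hsp-4* (chromosome II, 7350112 to 7352645, minus strand) had 226, 239 and 335 CPM in CGP37157 worms, against 182, 335 and 278 CPM in control worms. The highest values of the 2 groups were nearly equal, and the group means were 267 ± 59.5 CPM in CGP37157 worms and 265 ± 77.4 CPM in control worms (SD, n = 3 each). With a log2 fold change of 0.01 (SE 0.27) and an interval from 0.664-fold to 1.53-fold, it changed least of the 6.

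In mitochondria, *hsp-6* encodes the Hsp70 of the matrix and *hsp-60* the chaperonin that folds imported proteins in a closed chamber. *hsp-6* (chromosome V, 4824124 to 4826760, minus strand) had 203, 224 and 325 CPM in CGP37157 worms, against 176, 287 and 271 CPM in control worms. *hsp-60* (chromosome III, 1619742 to 1625803, plus strand) had 60.5, 68.8 and 111 CPM in CGP37157 worms, against 48.4, 101 and 82.5 CPM in control worms. In both genes, after TMM, CGP37157 replicate 3 was the highest library and control replicate 1 the lowest, with the others mixed between. The log2 fold change was 0.04 (SE 0.26) for *hsp-6*, with an interval from 0.682-fold to 1.54-fold, and 0.05 (SE 0.31) for *hsp-60*, with an interval from 0.644-fold to 1.67-fold.

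Taken by compartment, the median log2 fold change was 0.05 over the 2 tested cytosolic genes, 0.04 over the 2 ER genes and 0.04 over the 2 mitochondrial genes, beside -0.01 over all tested genes. Summed over each compartment, levels were 1612 ± 333 CPM in CGP37157 worms and 1541 ± 478 CPM in control worms for the cytosolic genes. The ER genes summed to 698 ± 66.9 CPM in CGP37157 worms and 676 ± 158 CPM in control worms, and the mitochondrial genes to 331 ± 92.2 CPM in CGP37157 worms and 322 ± 86.1 CPM in control worms (SD, n = 3 each). In each of these 3 compartments the difference was smaller than the SD of either group. On simulated counts of this design, 95% of genes changed by 4-fold were called and 16% of those changed by 2-fold. The changed genes were picked at random and simulated without shifts shared between genes of a library. All tested chaperones but *hsp-3* had a spread above the median of all tested genes, so these rates need not hold for them. Intervals of the 6 tested chaperones excluded an increase above 1.68-fold or a decrease below 0.644-fold. All 6 values lay above 0, but without control replicate 1 all 6 lay below 0, between -0.20 and -0.05, and without CGP37157 replicate 3 all but *hsp-3* did.

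**Figure D2:**
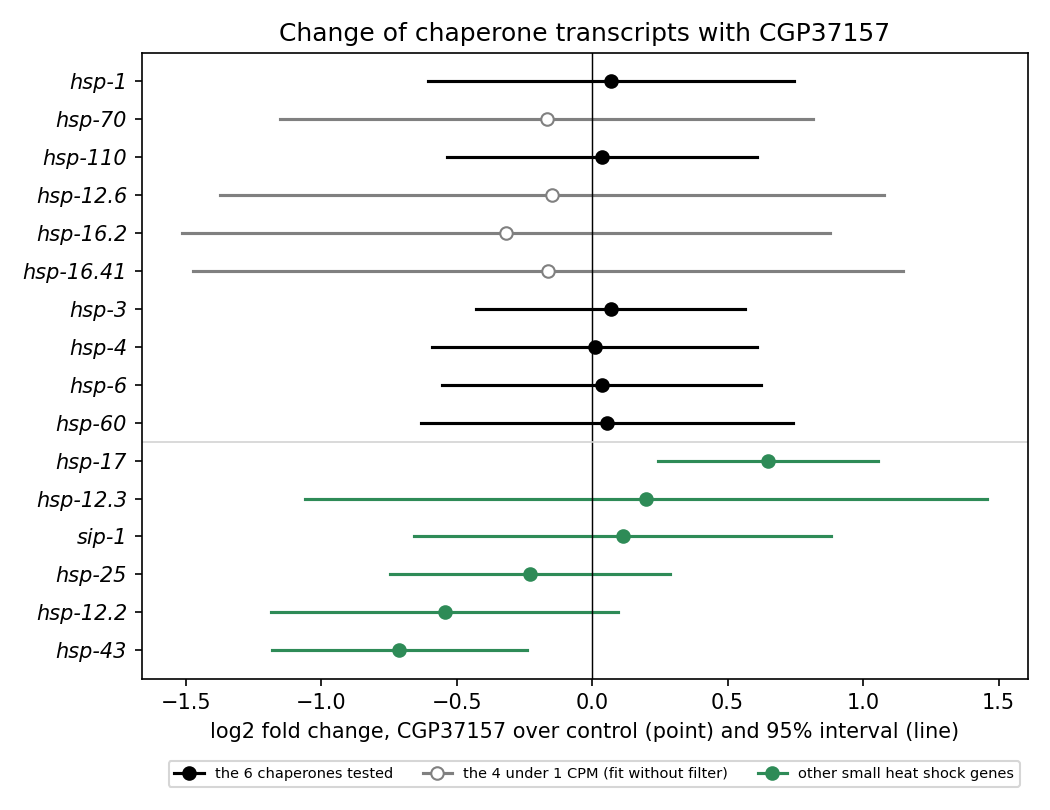
Log2 fold change of CGP37157 over control worms (points) with 95% intervals (lines) for the 6 chaperones tested, the 4 under 1 CPM in most libraries from the fit without a filter, and the other tested small heat shock genes. The 6 tested chaperones lie between 0.01 and 0.07, with intervals that all cross 0.

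Per kilobase of exon, the levels of the 10 chaperones formed 2 separate ranges. *hsp-1* averaged 678 CPM per kb over the 6 libraries, followed by *hsp-3* at 158, *hsp-4* at 119.04, *hsp-6* at 101, *hsp-110* at 62.6 and *hsp-60* at 37.1 CPM per kb. Each of these genes was above the next in 6 of 6 libraries, although the ranges of neighbours from *hsp-3* down to *hsp-60* overlapped. *hsp-16.2* came next at 0.790 CPM per kb, 46.9-fold under *hsp-60*. *hsp-16.41* at 0.412, *hsp-12.6* at 0.405 and *hsp-70* at 0.316 CPM per kb had no stable order, each being above the next in 3 or 4 of the libraries. The constitutive Hsp70 gene *hsp-1* was 2148-fold above the inducible *hsp-70* per kb.

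The spread between replicates was larger than the difference between the groups for each tested chaperone. On the log2 scale the pooled SD within groups was 0.40 for *hsp-1*, 0.36 for *hsp-110*, 0.21 for *hsp-3*, 0.39 for *hsp-4*, 0.37 for *hsp-6* and 0.50 for *hsp-60*, beside a median of 0.30 over all tested genes. The difference between group means was between 0.0824 and 0.415 of this SD, lowest for *hsp-4* and highest for *hsp-3*. Genes of different compartments moved alike between libraries of the same group. Relative to its own mean over the 6 libraries, the average of the 6 chaperones was -0.15, -0.13 and 0.36 (log2) in the CGP37157 libraries, against -0.48, 0.32 and 0.07 in the control libraries. *hsp-110*, *hsp-4*, *hsp-6* and *hsp-60* each lay on the same side of 0 as this average in 6 of 6 libraries, and *hsp-1* and *hsp-3* in 4. Each gene is itself part of this average, which favours the same side, so these counts are a description only. Control replicate 1 was the lowest of the 6 libraries for 6 of 6 genes, and CGP37157 replicate 3 the highest for 4. These ranks and the sides of 0 depend on the scaling. By library size alone, control replicate 1 was the lowest for 4 genes and CGP37157 replicate 3 the highest for 5. On that scale *hsp-110*, *hsp-4*, *hsp-6* and *hsp-60* rose with the replicate number in both groups, while *hsp-1* and *hsp-3* did not. For *hsp-6* the values were 194, 249 and 318 CPM in CGP37157 libraries, against 198, 233 and 281 CPM in control libraries. Control replicate 2 was the highest control library for 6 genes after TMM, and for 2 by library size alone.

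The summed markers of the germ line ran close to the chaperone average from library to library, but not every marker did. The 4 markers, *glp-1*, *glh-1*, *pgl-1* and *gld-1*, were above 1 CPM in every library, with none at 0, and 0 of 4 were called. They summed to between 1289 and 1791 CPM in CGP37157 worms and between 1095 and 1768 CPM in control worms. Relative to its own mean, their sum was -0.12, -0.17 and 0.30 in the CGP37157 libraries, against -0.40, 0.29 and 0.10 in the control libraries. The sum fell on the same side of 0 as the chaperone average in 6 of 6 libraries, at a root mean square distance of 0.0488 (log2). The scaling of libraries does not alter this distance, but it can alter the side of 0. *gld-1* made up 49.1% of the sum and lay at a distance of 0.0499 by itself, followed by *pgl-1* at 0.130 and *glh-1* at 0.180. *glp-1*, which made up 7.96%, lay at 0.450 and went the other way in 2 libraries. It was above its mean in CGP37157 replicate 2, at 0.14, and at its lowest in control replicate 2, at -0.62. Of the 7 marker lists compared by their sums the germ line was the nearest, the others lying between 0.221 for oocytes and embryos and 0.511 for body wall muscle. In whole worms, fewer cells of a type and less RNA per cell cannot be told apart, and the part of the germ line in the spread of the chaperones was not tested.

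**Figure D3:**
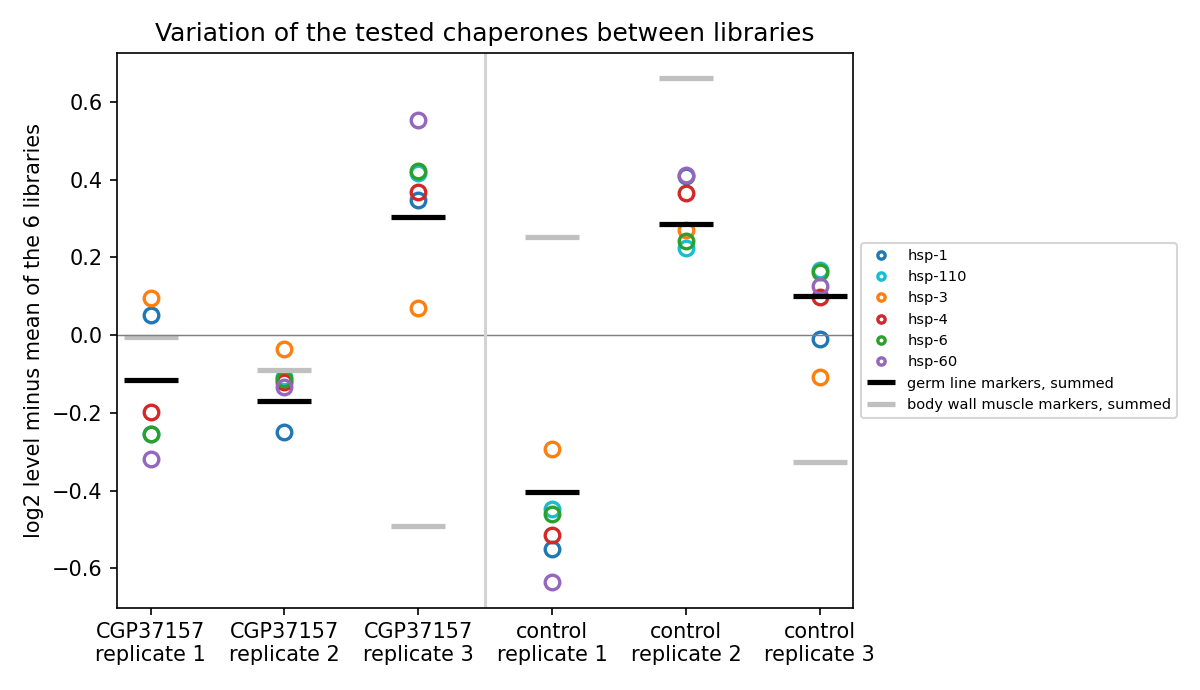
Log2 level of each tested chaperone (circles) minus its mean over the 6 libraries, by library, with CGP37157 replicates on the left and control replicates on the right, beside the summed markers of the germ line (black bars) and body wall muscle (grey bars). Chaperones lie high in CGP37157 replicate 3 (average 0.36) and low in control replicate 1 (-0.48). The summed germ line bar, 49.1% of which is *gld-1*, lies at 0.30 in CGP37157 replicate 3 and -0.40 in control replicate 1. The muscle bar lies at -0.49 in CGP37157 replicate 3 and 0.25 in control replicate 1, but on the same side of 0 as the chaperone average in 3 of the 6 libraries.

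Ratios of counts within a library do not depend on scaling. The first 2 pairs given here are those with the nearest patterns among 73 genes of the chaperone lists. Their steady ratios thus restate how they were picked and are a description only. *hsp-6* over *hsp-110* was 1.463, 1.456 and 1.467 in the CGP37157 libraries, against 1.449, 1.482 and 1.456 in the control libraries. These values differed by at most 1.02-fold while the CPM of *hsp-110* varied by 1.83-fold and that of *hsp-6* by 1.85-fold, and their coefficient of variation of 0.788% was under the 2.14% that counting error alone would give. *hsp-1* over *hip-1*, which encodes the Hsp70-interacting protein, was 9.14 ± 0.0571 in CGP37157 worms and 9.004 ± 0.127 in control worms (SD, n = 3 each), with a coefficient of variation of 1.27% beside 1.82% for counting.

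Other pairs varied far more than counting error, also within a compartment. The 2 BiP genes, *hsp-4* over *hsp-3*, had a ratio of 0.506, 0.585 and 0.763 in CGP37157 worms, against 0.532, 0.664 and 0.716 in control worms, a coefficient of variation of 16.47% beside 1.68% for counting. The 2 mitochondrial genes, *hsp-6* over *hsp-60*, varied by 8.97% and *hsp-6* over *hsp-1* by 12.57%. *hsp-60* over *Y22D7AL.10*, which encodes its HSP10 partner and lies 812 bases away in the opposite orientation, varied by 24.7%. Its ratio was 1.21, 1.73 and 2.18 in CGP37157 worms, against 1.13, 1.52 and 1.83 in control worms, so the 2 groups overlapped.

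**Figure D4:**
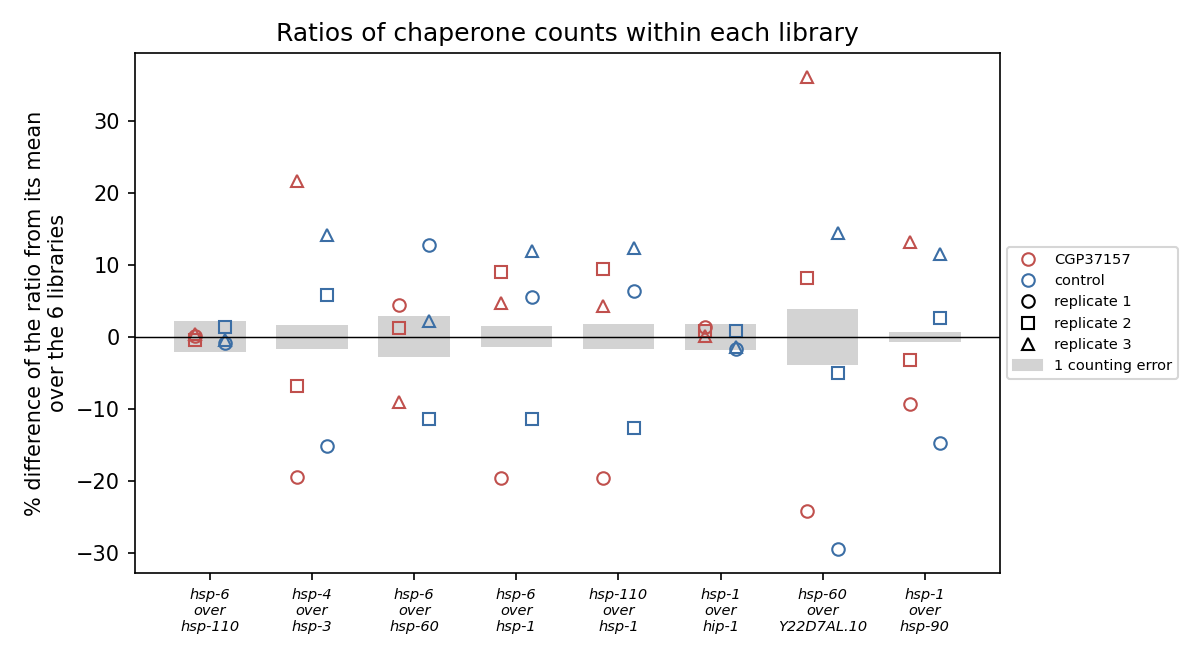
Ratios of chaperone counts within each library, as the percent difference from the mean ratio of the 6 libraries, with CGP37157 libraries in red to the left of control libraries in blue, and grey bands for 1 counting error on either side. *hsp-6* over *hsp-110* and *hsp-1* over *hip-1* stay within the bands (coefficients of variation 0.788% and 1.27%), while *hsp-60* over *Y22D7AL.10* spreads most (24.7%).

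Patterns were compared among 73 genes of the chaperone lists, which also hold stress regulators and proteases. Distance was the root mean square difference of centred log2 levels over the 6 libraries. The nearest to *hsp-1* was *hip-1* at 0.0173, and *hsp-110* and *hsp-6* were nearest to each other at 0.0105. The nearest to *hsp-3* was *pdi-6*, a protein disulfide isomerase of the ER, at 0.0841. *hsp-4* was nearest to *hsp-6* at 0.0686 and *hsp-60* to *hsp-4* at 0.106. The median distance of the 73 genes from these chaperones was between 0.225 and 0.370.

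In the wider family, 14 identifiers of small heat shock genes, the 3 above included, were measured and 6 were tested, of which 0 were called and 2 passed an unadjusted p of 0.05, as did 593 (4.79%) of all tested genes. *hsp-17* (chromosome V, 8384799 to 8385929) was the one whose CGP37157 libraries all lay above the control libraries, as they did for 3.85% of all tested genes. It had 70.3, 64.4 and 73.5 CPM in CGP37157 worms, against 46.2, 43.6 and 42.9 CPM in control worms. Its log2 fold change was 0.65 (SE 0.18, adjusted p = 0.228 by edgeR's quasi-likelihood test), and the adjusted p ranged from 0.0664 to 0.842 over the alternatives. Its exons overlap 73 bases of a gene on the other strand, *F52E1.14*.

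*hsp-43* (chromosome X, 6233151 to 6235543) lay the other way, at 69.2, 82.6 and 87.2 CPM in CGP37157 worms, against 109, 123 and 159.7 CPM in control worms. Its log2 fold change was -0.71 (SE 0.21, adjusted p = 0.302 by the same test), with adjusted p from 0.133 to 1.0 over the alternatives. Neither gene passed the threshold under any of them. The 5 body wall muscle markers, none at 0, had log2 fold changes from -0.50 to -0.28, with 0 of 5 called, and summed to between 2204 and 3091 CPM in CGP37157 worms and between 2470.0 and 4899.7 CPM in control worms. Their part in the value of *hsp-43* was not tested.

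The remaining tested small heat shock genes overlapped between groups. *sip-1*, a small heat shock gene of oocytes and embryos, was by far the most abundant of them, at 1867, 1125 and 2035 CPM in CGP37157 worms, against 1035, 2218 and 1399 CPM in control worms. Its values were thus spread over about the same range in both groups, with a log2 fold change of 0.11. Summed markers of oocytes and embryos, with 8 of 8 above 1 CPM in every library, were likewise between 10047 and 14290.1 CPM in CGP37157 worms and between 9290 and 18043 CPM in control worms, and their part in the spread of *sip-1* was not tested. Log2 fold changes were -0.54 for *hsp-12.2*, 0.20 for *hsp-12.3*, which neighbours *hsp-12.6*, and -0.23 for *hsp-25*.

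*hsp-12.1* had 57 reads in CGP37157 worms and 54 reads in control worms. The heat-inducible genes *hsp-16.1* and *hsp-16.48* are each present as 2 near-identical copies on chromosome V, whose reads cannot be assigned with certainty. The *hsp-16.1* copies had 39 and 4 reads in CGP37157 worms, against 29 and 4 reads in control worms. One *hsp-16.48* copy had 36, 6 and 0 reads in the CGP37157 libraries, against 3, 1 and 2 reads in the control libraries, so that CGP37157 replicate 1 alone held most of its reads. The other copy had 30 reads in CGP37157 worms and 16 reads in control worms.

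None of the other listed genes of the 3 compartments was called in either direction. These lists hold stress regulators and proteases as well as chaperones. In the cytosol, 34 further genes were listed and 30 tested, with a median log2 fold change of -0.04. The highest was *chn-1*, the worm CHIP ubiquitin ligase, at 0.16, and the lowest *unc-23*, a BAG-domain co-chaperone of muscle attachment, at -0.39. *unc-23* had 24.9, 29.9 and 28.8 CPM in CGP37157 worms, against 37.6, 36.8 and 35.1 CPM in control worms. It was the 1 gene of these 30 without overlap, and its adjusted p was 0.999929 by edgeR's quasi-likelihood test. Among all tested genes, all CGP37157 libraries lay below all control libraries for 3.69%. *hsp-90*, the cytosolic Hsp90, had 3448 ± 503.6 CPM in CGP37157 worms and 3282 ± 863 CPM in control worms (SD, n = 3 each), and *hsf-1*, the heat shock factor gene, had a log2 fold change of 0.15. All 8 subunits of the CCT chaperonin were tested, with values from -0.28 to -0.02.

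In the ER, 17 further genes were listed and 17 tested, with a median of -0.04, the highest being the stress sensor kinase gene *pek-1* at 0.20 and the lowest *dnj-27*, a DnaJ protein of the ER, at -0.27. In mitochondria, 16 were listed and 15 tested, with a median of -0.01, the highest being *dve-1*, a regulator of the mitochondrial stress response, at 0.17 and the lowest *lonp-1*, the Lon protease, at -0.19. Over the 4 lists with the 10 chaperones left out, 0 of 68 tested genes were called, 27 lay above 0 and 41 below, with a median of -0.03. Among all tested genes, 1.16% were called higher and 0.234% lower, 5868 lay above 0 and 6517 below, and the median was -0.01.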

How the data were processed

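Per the labels, N2 worms gave stranded mRNA libraries (TruSeq), read as paired ends. Gene counts, deposited by the authors without normalization, were identical in both tables, and the submitters' processing notes name HISAT2, featureCounts, DESeq, DESeq2 and edgeR without versions; the genome build is not given in the sources used here. The 12 per-sample columns of normalized values, and the columns of the authors' own comparisons (fold changes and p-values), were not used.

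Counts were fitted with edgeR 4.0.16 (R 4.3.3), TMM scaling, glmQLFit and glmQLFTest with the condition alone, on 12385 of the 21932 genes with a count. Standard errors and 95% intervals come from the test statistic. Scripts were tested on simulated data with 200 changed genes, with 10 false calls. Of 46904 identifiers, 46817 were located in Ensembl WBcel235 release 115, which gave positions and exonic lengths. Depth makes counting error small for the 6 tested chaperones and large for the rest. Alternatives were RLE factors, library sizes only, DESeq2 1.42.0, the likelihood ratio test, other filters, a replicate block and leaving out each library.

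The 10 genes and the lists were chosen with earlier results of these data known. Named were the 10 genes, all small heat shock genes, the highest and lowest gene of each other list, genes passing the threshold there, and the gene nearest in pattern to each tested chaperone. *hsp-90*, *hsf-1*, *Y22D7AL.10*, *F44E5.4*, *F44E5.5* and the CCT genes were named after their values were seen. One gene was dropped from the mitochondrial list after its values were seen, because its annotation named a different protein.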

Additional observations from a re-analysis of the deposited data

How the results depend on the processing

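Neither the 10 chaperones nor the wider lists gave a call under any alternative, including DESeq2 without a low-count filter, an alternative chosen after seeing the data. Scaling by RLE factors or library sizes only, the other tests and the other filters kept all 6 tested chaperones above 0. Leaving out 1 library moved the log2 fold change across 0, with ranges of -0.14 to 0.32 for *hsp-1*, -0.18 to 0.17 for *hsp-110*, -0.049 to 0.24 for *hsp-3*, -0.20 to 0.21 for *hsp-4*, -0.18 to 0.17 for *hsp-6*, -0.24 to 0.29 for *hsp-60*, -0.16 to 0.67 for *hsp-12.3*, -0.39 to 0.020 for *hsp-25* and -0.11 to 0.46 for *sip-1*. The ER median ranged from -0.12 without control replicate 1 to 0.23 without control replicate 2. Leaving 2 libraries in a group pools the spread over both groups.

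Over all genes, 144 were called higher and 29 lower, and the lower count was 17 with library sizes only, 60 with DESeq2, 66 with the likelihood ratio test, 66 without a filter, 63 with DESeq2 without a filter, and 12 to 34 leaving out a library. Labels number the replicates alike in both groups and give same-numbered libraries a shared suffix of unstated meaning. Since that meaning is not given, same-numbered libraries were not treated as pairs. Over all tested genes, correlations of their deviations from the group mean were 0.11, -0.51 and 0.39. Between libraries of unlike number these correlations ranged from -0.59 to 0.51. Deviations within a group cancel out by construction, so these correlations cannot decide whether same-numbered libraries belong together. Some ratios did follow the replicate number. Those of *hsp-4* over *hsp-3* and of *hsp-60* over *Y22D7AL.10* rose with it in both groups, while that of *hsp-6* over *hsp-60* did not. Whether same-numbered libraries share an effect on the chaperones was not tested. With the replicate block, log2 fold changes were 0.10 for *hsp-1*, 0.04 for *hsp-110*, 0.09 for *hsp-3*, 0.03 for *hsp-4*, 0.04 for *hsp-6*, 0.07 for *hsp-60* and -0.0047 for *hsp-12.3*, the block called 117 genes higher and 20 lower over all genes, and no chaperone was called. A planned search of promoters for heat shock elements was not run. Depth limits the 4 chaperones near 1 CPM, whose intervals span more than 3-fold.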
